A study of Saccharomyces cerevisiae with 3 samples.

Results

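The 34 genes described here are nuclear genes of the mitochondrial respiratory chain of budding yeast. They were chosen by systematic name and not by their values from 6212 genes listed on the arrays, but with earlier results of these data known. They encode 2 NADH dehydrogenases, 4 subunits of complex II, 8 of complex III, cytochrome c, 8 subunits of complex IV and 11 of the ATP synthase. Of the 34 genes, 33 had a value on at least 1 array, 32 had a value in both replicates and could be tested, and 30 were measured on all 3 arrays. COX9 (YDL067C), a small subunit of complex IV, was blank on every array.

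Transcript levels were compared between a wild type strain of the JA100 background and its tetO:HAL3 vhs3::URA3 derivative on 3 two-colour arrays. In the mutant the VHS3 gene carries the URA3 marker, and HAL3 stands behind a tetO promoter, which doxycycline is used to repress. Both strains were grown at 28 °C in synthetic complete medium for 15 h, and doxycycline at 100 µg/ml was present in the wild type culture as well. Replicate 1 was hybridised on a swapped pair of arrays, first with the mutant in Cy5 and then with it in Cy3, and replicate 2 on 1 array with the mutant in Cy5. Where 3 values are given for a gene they follow that order. Hal3 and Vhs3 inhibit the phosphatase Ppz1 and, with Cab3, form an enzyme of coenzyme A synthesis. Each value is the log2 of the mutant level over the wild type level, relative to the median of its array, so a change in total RNA per cell would not be seen.

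The respiratory chain passes electrons from NADH and succinate through ubiquinone, complex III and cytochrome c to oxygen at complex IV. Budding yeast has no proton-pumping complex I and uses single-subunit NADH dehydrogenases in its place. Complexes III and IV pump protons across the inner mitochondrial membrane, and the ATP synthase uses the gradient to make ATP. In glucose medium many of these genes are held down by glucose repression, and the Hap2/3/4/5 complex activates them when cells respire. Some core subunits of complexes III and IV and of the ATP synthase are encoded in mitochondrial DNA, so each of these complexes needs the products of both genomes.

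The labels were first checked against the altered genes. VHS3 had a log2 ratio of −2.06 and −2.50 on the arrays for replicate 1 and 0.09 on the array labelled as replicate 2. HAL3 (SIS2 in RefSeq) was at −1.33, −1.29 and −0.14, and the marker URA3 at −1.40, −0.82 and −0.33. The first 2 arrays had VHS3 and HAL3 low. On the array labelled as replicate 2 VHS3 was not low and HAL3 was only at percentile 29.2. Every direction taken from that array carries this mismatch. The file does not state which channel is the numerator. The sample titles put the wild type before the slash where the mutant is in Cy5, and the mutant before it on the swapped array. Whether that order is meant as a ratio is not stated. The reading as mutant over wild type is the likely one, taken from the dyes in the labels and from VHS3 and HAL3 in replicate 1. URA3, which the mutant carries as a marker, was below 0 on all 3 arrays and so goes against that reading, and whether the wild type has a working URA3 gene is not stated in the labels. The arrays held 4894 and 4822 ratios for replicate 1 and 4728 for replicate 2, and the SD of the ratios was 0.650, 0.699 and 0.353. Intensities were not analysed, so how far a spot stood above background is not known, and precision is limited by having 3 arrays.

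ATP synthase and complex IV genes lay above the array median in replicate 1, and the same genes were spread around 0 on the array labelled as replicate 2. All 11 ATP synthase genes and all 6 complex IV genes measured on both dye-swap arrays were above 0 on both of them. Complex III was mixed there, with 3 of 7 genes above 0 on both arrays, and among the NADH dehydrogenases and complex II it was 1 of 6. Over the whole group 21 of 31 genes were above 0 on both dye-swap arrays and 3 were below 0 on both, against 27.8% and 28.4% of all genes. The median of the 32 genes was 0.43 in replicate 1, a 1.35-fold higher level in the mutant, and −0.09 on the array labelled as replicate 2, against 0.02 and 0.0014 for all genes. Cytochrome c went the other way, with CYC1 below 0 in replicate 1 and at 0.61 on the array labelled as replicate 2.

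By test, 0 of the 32 genes passed, as did 0% of all genes tested. Their smallest adjusted p was 0.925 (limma, Benjamini-Hochberg over 4598 genes). At an unadjusted p under 0.05 there were also 0 of the 32 genes in either direction, against 1.39% of all genes higher and 3.44% lower. With 2 replicates the smallest two-sided p of an exact sign-flip test is 0.5. The 95% intervals of the 32 mean log2 ratios were 1.05 to 1.78 wide, with a median of 1.17, so each interval spans a more than 2-fold range. Whether separate cultures stand behind the arrays is known only from the word biological in the labels.

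**Figure D1:**
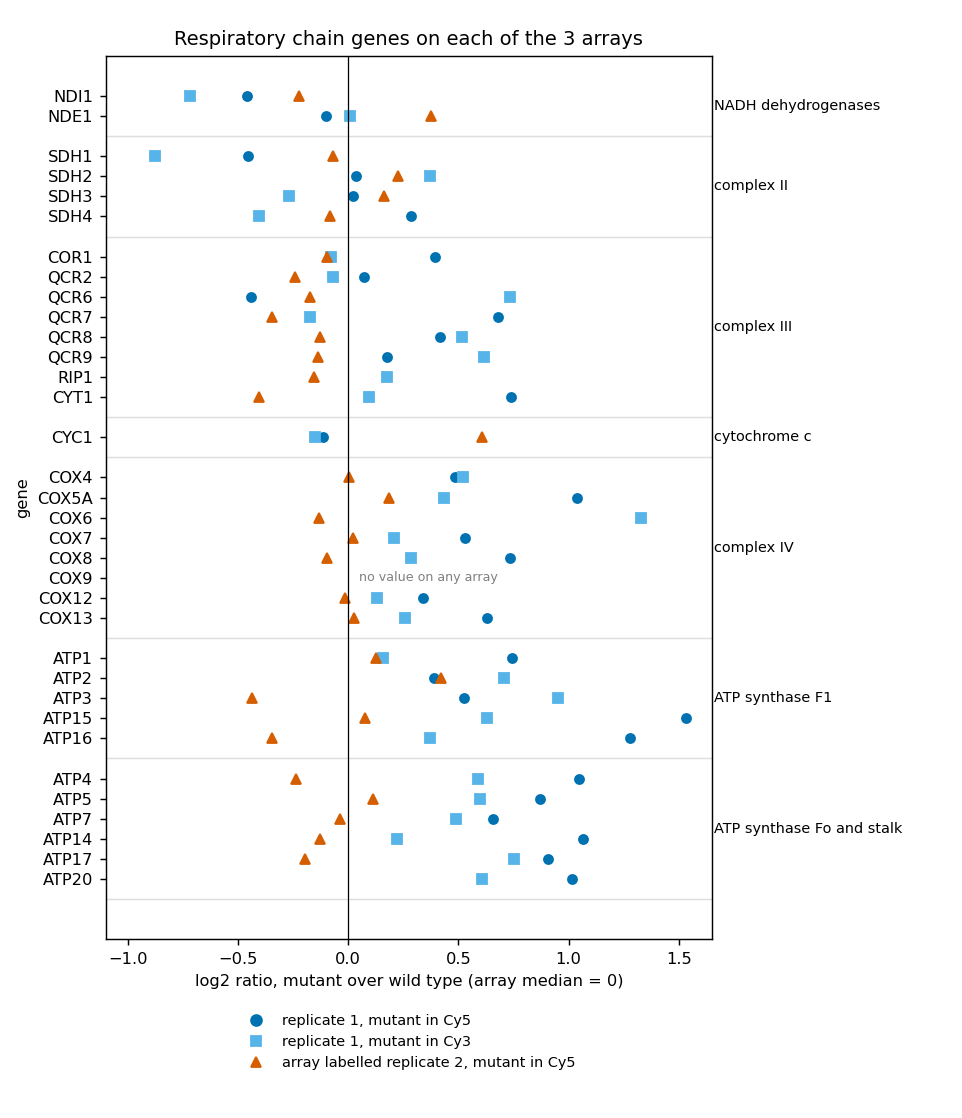
Log2 ratio of mutant over wild type for each of the 34 genes, grouped by complex, with 1 point per array (x axis, log2 ratio with the array median at 0; y axis, genes). The circles and squares of replicate 1 lie right of 0 for every measured ATP synthase and complex IV gene, and the triangles of the array labelled as replicate 2 lie between −0.44 and 0.61.

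The plot of each gene on each array shows the order of the complexes from electron entry to ATP synthesis. Electron entry begins with NDI1 (YML120C), the NADH dehydrogenase that faces the mitochondrial matrix. NDI1 was at −0.46 and −0.72 on the swapped pair and −0.22 on the array labelled as replicate 2. It was 1 of only 2 genes of the group below 0 on all 3 arrays, with a mean of −0.41 ± 0.26 (SD, n = 2). NDE1 (YMR145C) encodes the dehydrogenase that oxidises cytosolic NADH from the outer face of the inner membrane. NDE1 was at −0.10, 0.01 and 0.38, close to 0 in replicate 1 and higher than 95.6% of the genes tested on the array labelled as replicate 2. The 2 dehydrogenases thus differed in sign on that array.

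Complex II, succinate dehydrogenase, joins the tricarboxylic acid cycle to the chain. SDH1 (YKL148C), the flavoprotein subunit that oxidises succinate, was at −0.46, −0.88 and −0.07, the other gene below 0 on all 3 arrays. SDH2 (YLL041C), the iron-sulfur subunit, was at 0.04, 0.37 and 0.23, above 0 on all of them. The catalytic pair was therefore split, with SDH1 in the lowest 8.63% of genes in replicate 1 and SDH2 at percentile 67.7. SDH3 (YKL141W), a membrane anchor subunit, was at 0.02, −0.27 and 0.16. SDH4 (YDR178W), the other anchor, was at 0.29, −0.41 and −0.08. Both anchors changed sign between the arrays of the swapped pair, so neither had a settled direction within replicate 1. SHH3, SHH4 and SDH9 are close relatives of SDH3, SDH4 and SDH1, and a spotted probe may bind transcripts of both relatives.

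Complex III, the cytochrome bc1 complex, had medians of 0.39 and 0.13 on the swapped pair and −0.16 on the array labelled as replicate 2. All 8 genes were above 0 as averages of replicate 1, QCR2 by only 0.0008, and all 8 were below 0 on the array labelled as replicate 2. Over the whole group that pattern held for 17 of 32 genes, against 25.2% of all genes tested. The average of replicate 1 hid large differences between its arrays for several of these genes.

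Of the redox subunits encoded in the nucleus, RIP1 (YEL024W), the Rieske iron-sulfur protein, was blank on the first array and at 0.17 and −0.15 on the others. CYT1 (YOR065W), cytochrome c1, which hands electrons to cytochrome c, was at 0.74, 0.09 and −0.41. QCR6 (YFR033C), the acidic hinge subunit near cytochrome c1, was at −0.44, 0.73 and −0.18. QCR6 had the largest gap between the dye-swap arrays of any gene of the group, −1.17 for Cy5 minus Cy3, and its average of 0.145 describes neither array.

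The core proteins COR1 (YBL045C) and QCR2 (YPR191W) were at 0.39, −0.08 and −0.10 and at 0.07, −0.07 and −0.24. QCR7 (YDR529C), a small subunit on the matrix side, was at 0.68, −0.17 and −0.35. QCR8 (YJL166W), which contacts cytochrome b, was at 0.42, 0.52 and −0.13. CYT1, QCR8 and QCR9 were the 3 complex III genes above 0 on both dye-swap arrays. QCR9 (YGR183C), a small subunit of the membrane part, was at 0.18, 0.62 and −0.14.

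CYC1 (YJR048W) encodes the main, aerobic form of cytochrome c, the mobile carrier between complexes III and IV. CYC1 was at −0.12 and −0.15 on the swapped pair and 0.61 on the array labelled as replicate 2. It stood at percentile 99.2 there and was the 1 gene of 32 that was at least 1.5-fold higher on that array, where 0.848% of all genes were. The mean was 0.24 ± 0.52 (SD, n = 2) with an adjusted p of 0.961 (limma). CYC7, the minor form of cytochrome c, was at −2.93, −1.96 and −0.31, so the pair of isoform genes lay on opposite sides of 0 on the array labelled as replicate 2 and both below 0 in replicate 1.

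Complex IV, cytochrome c oxidase, had medians of 0.58 and 0.29 on the swapped pair and 0.0042 on the array labelled as replicate 2. COX5A (YNL052W), the aerobic isoform of subunit 5, was at 1.04, 0.43 and 0.19, the highest mean of the genes of this complex measured on all 3 arrays, 0.46 ± 0.39 (SD, n = 2). COX4 (YGL187C), which is needed for assembly of the enzyme, was at 0.48, 0.52 and 0.0042. Its dye-swap values differed by −0.04 (Cy5 minus Cy3), the smallest gap in complex IV.

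COX6 (YHR051W), a subunit whose gene is known to respond to carbon source and heme, was blank on the first array and at 1.33 and −0.13 on the others. Its 2.51-fold higher level in replicate 1 is the largest of the group and rests on a single array. COX7 (YMR256C) and COX8 (YLR395C), small membrane subunits, were at 0.53, 0.21 and 0.02 and at 0.73, 0.29 and −0.10. COX12 (YLR038C), on the intermembrane space side, was at 0.34, 0.13 and −0.02. COX13 (YGL191W), a subunit that is not essential for activity, was at 0.63, 0.26 and 0.03. Of these 7 genes, 4 were also above 0 on the array labelled as replicate 2, 3 of them by less than 0.03.

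**Figure D2:**
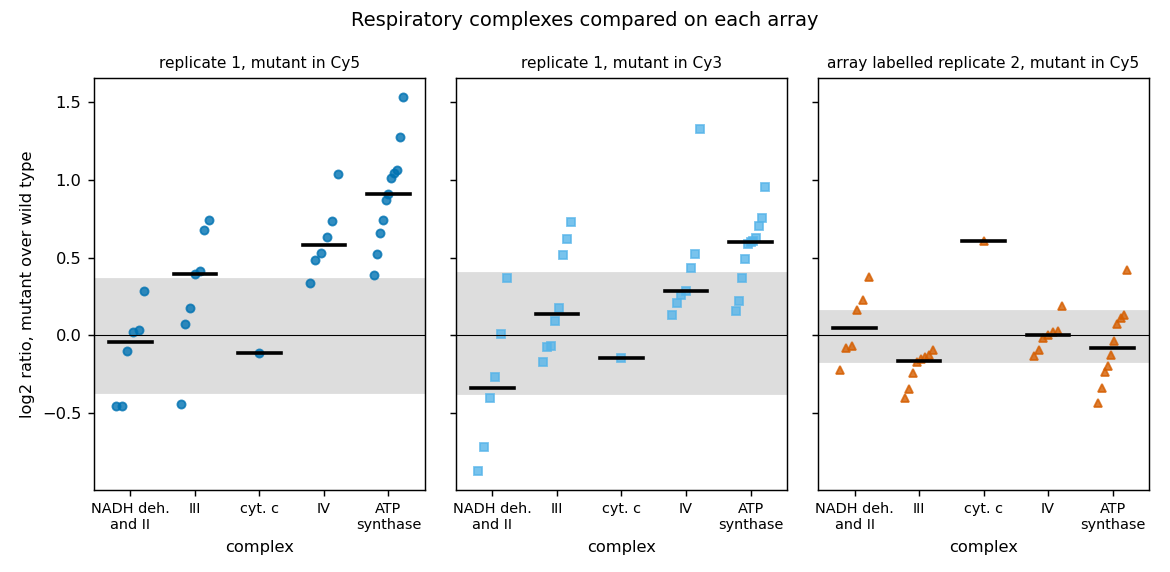
Members of each complex on each array (y axis, log2 ratio of mutant over wild type; x axis, complex). Points are genes, black bars are medians and the grey band spans the middle 50% of all genes on that array. With cytochrome c left out, the medians rise from the NADH dehydrogenases with complex II to the ATP synthase on both arrays of replicate 1 (−0.04 to 0.91 and −0.34 to 0.60). No such order appears on the array labelled as replicate 2. Cytochrome c, with the single gene CYC1, breaks the rise in replicate 1 (−0.12 and −0.15).

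The ATP synthase genes had the highest medians of the complexes in replicate 1, 0.91 and 0.60 on its arrays, and −0.08 on the array labelled as replicate 2. Over the 10 tested genes, so without ATP20, the median of the replicate 1 averages was 0.74, a 1.67-fold higher level. The F1 part, which faces the matrix and carries the catalytic sites, and the Fo part with the stalk that holds it were alike in replicate 1, with medians of 0.74 and 0.73. On the array labelled as replicate 2 they were at 0.07 and −0.13.

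Among the F1 genes, ATP2 (YJR121W), the catalytic beta subunit, was at 0.39, 0.71 and 0.42. ATP2 had the closest values in both replicates among the ATP synthase genes, 0.55 and 0.42, a mean of 0.48 ± 0.09 (SD, n = 2) with a 95% interval of −0.04 to 1.01. That interval includes 0, and the unadjusted p of 0.0656 in limma was the smallest of the group, with an adjusted p of 0.925. ATP1 (YBL099W), the alpha subunit that forms the ring with beta, was at 0.75, 0.16 and 0.13.

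The central stalk turns inside that ring. ATP3 (YBR039W), its gamma subunit, was at 0.52, 0.95 and −0.44, the lowest value of the group on the array labelled as replicate 2. ATP16 (YDL004W), the delta subunit, was at 1.28, 0.37 and −0.34. Both genes were thus far above 0 in replicate 1 and among the lowest 12.4% of genes on the other array. ATP15 (YPL271W), the epsilon subunit, was at 1.53, 0.63 and 0.07, the largest average of replicate 1 over both arrays, a 2.12-fold higher level, and a mean of 0.58 ± 0.71 (SD, n = 2).

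The peripheral stalk keeps the ring from turning along. Its genes ATP4 (YPL078C), ATP5 (YDR298C) and ATP7 (YKL016C) were at 1.05, 0.59 and −0.24, at 0.87, 0.60 and 0.11, and at 0.66, 0.49 and −0.04. ATP14 (YLR295C), subunit h of the same stalk, was at 1.07, 0.22 and −0.13. Of these 4 genes, ATP5 alone was above 0 on all 3 arrays. ATP17 (YDR377W), subunit f of the membrane part, was at 0.91, 0.75 and −0.20. ATP20 (YPR020W), subunit g, which takes part in pairing of the enzyme, was at 1.02 and 0.61 and blank on the array labelled as replicate 2, so it was not tested.

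Size counts put the ATP synthase ahead within replicate 1. In the average of replicate 1, 9 of 32 genes were at least 1.5-fold higher, namely COX5A, COX6, ATP3, ATP4, ATP5, ATP14, ATP15, ATP16 and ATP17, against 10.1% of all genes tested. On both dye-swap arrays separately, 5 of 31 genes reached that size, namely ATP4, ATP5, ATP15, ATP17 and ATP20, against 4.20% of all genes. SDH1 and NDI1 were the 2 of 32 genes at least 1.5-fold lower in replicate 1, against 10.5% of all genes. No gene of the group was at least 2-fold different in the same direction in both replicates, where 0.413% of all genes were.

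Of 32 genes 9 were above 0 in both replicates, a share near the 26.6% of all genes, and 3 were below 0 in both, against 24.6%. The 9 genes were SDH2, COX4, COX5A, COX7, COX13, ATP1, ATP2, ATP5 and ATP15, and the 3 were NDI1, SDH1 and SDH4. Of the 30 genes measured on all 3 arrays the same 9 were above 0 on all of them, against 14.5% of all genes, and NDI1 and SDH1 were below 0 on all, against 15.9%. For COX4, COX7 and COX13 the value on the array labelled as replicate 2 was under 0.03.

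Differences between complexes were compared per array. The median of the ATP synthase exceeded that of the NADH dehydrogenases with complex II by 0.95 and 0.94 on the swapped pair and stood at −0.13 relative to it on the array labelled as replicate 2. On the first array the groups did not overlap, the lowest ATP synthase gene being ATP2 at 0.39 and the highest of the other 6 genes SDH4 at 0.29. On the swapped array they did, with ATP1 at 0.16 and SDH2 at 0.37. Complex IV exceeded the NADH dehydrogenases with complex II by 0.62 on each array of the pair and was at −0.04 relative to them on the array labelled as replicate 2. Complex IV exceeded complex III by 0.19, 0.15 and 0.17, the 1 comparison of the 6 pairs of complexes besides ATP synthase over complex III (0.52, 0.47 and 0.08) with the same sign on all 3 arrays. With 2 replicates no difference between complexes can reach a two-sided exact p below 0.5, and genes of a complex are not replicates of each other.

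**Figure D3:**
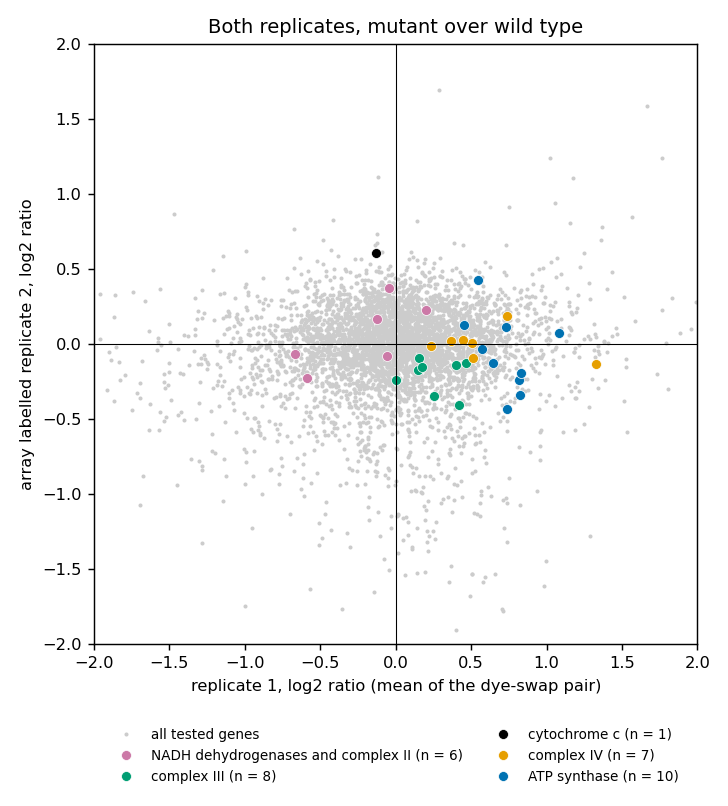
Replicate 1 (x axis, log2 ratio as the mean of the swapped pair) against the array labelled as replicate 2 (y axis, log2 ratio) for the 4598 genes tested, with the 32 respiratory chain genes in colour. ATP synthase and complex IV genes lie right of 0 and on both sides of the horizontal line, complex III lies below it, and 45 genes fall outside the axes at 2.

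The plot of both replicates shows how little the genes agreed between them. Across the 31 genes measured on both dye-swap arrays Pearson's r was 0.52, and across the 32 genes tested it was −0.16 between replicate 1 and the array labelled as replicate 2. Over all genes the values were 0.51 and 0.16. Genes are not independent replicates, and the swapped pair shares its RNA. Replicate 1 put 26 of the 32 genes above 0, against 2384 of the 4598 genes tested. For the array labelled as replicate 2 these counts were 12 and 2302. The medians over all genes tested were 0.02 and 0.0014.

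Within replicate 1 the ratios differed between the arrays of the swapped pair. The median gap of Cy5 minus Cy3 was 0.41 for the ATP synthase, 0.35 for complex IV, 0.14 for complex III, 0.36 for complex II and 0.03 for all genes. Complex II, with a median of −0.09 in replicate 1, thus had a gap of the size seen in complex IV. The array labelled replicate 2 also had the mutant in Cy5, and its ATP synthase median was −0.08. The part of the dye in these values was not tested. No gene of the group lies on chromosome IX, whose median was −0.67 in replicate 1. COX4, COX13 and QCR9 lie on chromosome VII and COX6 on VIII, where the medians of the array labelled as replicate 2 were −0.03 and −0.08.

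Regulators and alternative isoforms of the chain were examined next. HAP4 (YKL109W), the activating subunit of the Hap complex whose own gene is repressed by glucose, was at −1.19, −0.76 and −0.33, below 0 on all 3 arrays with a mean of −0.65 ± 0.46 (SD, n = 2). Its unadjusted p was 0.0407 and its adjusted p 0.925 in limma. HAP3 (YBL021C), a DNA-binding subunit, was at 0.37, 0.81 and 0.24. None of the 6 genes of the Hap and Rox1 list passed the test, and the list had 1 gene above 0 and 1 below 0 in both replicates.

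Isoform and paralog genes were not uniform in replicate 1, and 3 of 6 were tested. CYC7 (YEL039C) had a mean of −1.38 ± 1.51 (SD, n = 2) and an unadjusted p of 0.0284, with an adjusted p of 0.925 in limma. COX5B (YIL111W), the hypoxic form of subunit 5, was at −1.18, −1.58 and 0.05, opposite in sign to COX5A in replicate 1, and it lies on chromosome IX. NDE2 (YDL085W), the second external NADH dehydrogenase, was at −0.62 on the first array and blank on the others. SDH9 (YJL045W) was at 0.87, −0.56 and −0.05, SHH4 at −0.19 on the first array alone, and SHH3 at −0.03 on the array labelled as replicate 2 alone. CYC7 and COX5B differed from CYC1 and COX5A by over 1 unit of log2 ratio in replicate 1. Whether probes for such pairs bind transcripts of both genes was not tested.

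Subunits outside the group could be followed in part. The 7 mitochondrially encoded subunits had no value here, so the mitochondrial side of complexes III and IV and of the ATP synthase was not analysed here. Among 8 further nuclear subunits and inhibitors 5 had a value, 3 were tested and none passed. TIM11, subunit e of the ATP synthase, was at 0.87, 0.30 and −0.02, and ATP19, subunit k, at 0.86, 1.03 and −0.44. INH1, the inhibitor of ATP hydrolysis by the enzyme, was at 1.12 and 1.31 and blank on the array labelled as replicate 2. QCR10, a further subunit of complex III, was at 0.27 and −0.28 and blank on the array labelled as replicate 2. TIM11, ATP19, INH1 and QCR10 are named after their values were seen. STF2 (YGR008C), a stress gene first described as a factor of the enzyme, was at −0.28, −0.22 and −0.78.

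**Figure D4:**
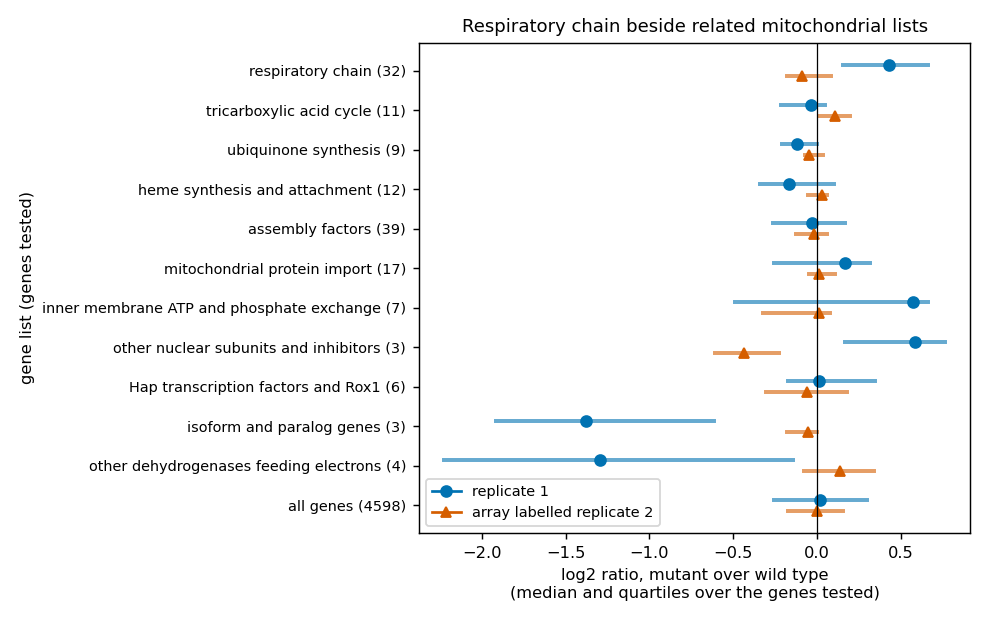
Medians (points) and quartiles (lines) of the log2 ratio of mutant over wild type for the respiratory chain and related gene lists (y axis, with the number of genes tested) in replicate 1 and on the array labelled as replicate 2. The respiratory chain is at 0.43 and −0.09, the tricarboxylic acid cycle at −0.04 and 0.11, and assembly factors at −0.03 and −0.02.

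Related mitochondrial lists are shown in the plot of list medians, and 0 of their genes passed the test in either direction. The tricarboxylic acid cycle without SDH had medians of −0.04 and 0.11 (11 tested, 4 above and 2 below 0 in both replicates). LPD1 (YFL018C), dihydrolipoamide dehydrogenase, was its only gene with 1 sign on all 3 arrays, at 0.28, 0.06 and 0.11. Ubiquinone synthesis was at −0.12 and −0.05 (9 tested, 0 above and 4 below 0 in both). Heme synthesis and attachment was at −0.17 and 0.03 (12 tested, 3 above and 4 below), with HEM4, uroporphyrinogen III synthase, at 0.53, 0.53 and 0.09 and HEM15, ferrochelatase, at −0.10, −0.81 and −0.05. Each of these lists was within 0.2 of 0 by its median in both replicates.

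Assembly factors of the complexes had medians of −0.03 and −0.02 (39 of 51 tested, 5 above and 8 below 0 in both). AEP1 (YMR064W), needed for expression of the mitochondrial gene of ATP synthase subunit 9, was at −1.24, −0.30 and −0.08. CBS2 (YDR197W) was at −0.10, −0.78 and −0.07. CBP1 (YJL209W), which stabilises the mitochondrial message of cytochrome b, was at 1.05, 0.24 and 0.05, and ATP12 (YJL180C), an assembly factor of F1, at 0.12, 0.45 and 0.06. Their median in replicate 1 was thus near 0 where that of the subunits was 0.43, and this difference was not tested.

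Carriers that exchange ATP, ADP and phosphate, listed together with the porins POR1 and POR2, had medians of 0.58 and 0.01 (7 tested, 3 above and 1 below 0 in both). PET9 (YBL030C), the main ADP/ATP carrier, was at 0.83, 0.37 and 0.02, and POR1 (YNL055C), the porin of the outer membrane, at 1.29, 0.17 and 0.01. PIC2 (YER053C), a minor phosphate and copper carrier, was at −0.89, −0.69 and −0.65, with the close agreement of −0.72 ± 0.10 (SD, n = 2), an unadjusted p of 0.0155 and an adjusted p of 0.887 in limma. Protein import genes were at 0.17 and 0.01 (17 tested, 7 above and 2 below). TIM44 (YIL022W), which tethers the import motor, was at −0.50, −1.03 and −0.76 and lies on chromosome IX. PAM18 (YLR008C), a J-protein of that motor, was at 0.91, 0.45 and 0.33.

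Other dehydrogenases that feed the chain had the medians −1.29 and 0.14 (4 tested, 0 above and 1 below 0 in both). GUT2 (YIL155C), mitochondrial glycerol-3-phosphate dehydrogenase, was at −1.73, −2.40 and −0.06 and lies on chromosome IX. CYB2, the L-lactate dehydrogenase that passes electrons to cytochrome c, was at −2.68, −2.73 and 0.34, and PUT1, proline oxidase, at 1.39, 0.59 and −0.13. The last 2 are named after their values were seen. In replicate 1 the 4 enzymes ran from −2.71 (CYB2) to 0.99 (PUT1), and the genes of the chain from −0.67 (SDH1) to 1.33 (COX6).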

How the data were processed

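The authors deposited, for each array, a log2 ratio of its channels per gene. Their background correction, spot filter and normalization were not given in the sources used here, and a blank was taken as missing. Base 2 was read from the values. Of the linear ratios whose rounding of the log2 value leaves an error under 0.05 thousandths (3697, 3574 and 4448 per array), 100% were whole thousandths within that error (5.5e-05 on the log2 scale), against 9.63 to 11.1% under the same rule with the sign turned. The array with exchanged dyes was not turned, as its r with its partner was 0.508 over all genes.

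Each array was centred on its median, and the dye-swap pair was averaged into 1 replicate, with 1 value used where the other was blank. The 4598 genes with both replicates were tested against a log2 ratio of 0 (R 4.3.3, limma 3.58.1 with lmFit and eBayes, n = 2, prior degrees of freedom 5.15), two-sided, adjusted by Benjamini-Hochberg over all of them at 0.05. The script was tested on simulated data.

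Names and chromosomes came from RefSeq (assembly R64), which matched 5638 of 6212 identifiers. The members and the 11 related lists were chosen with earlier results of these data known. All members were named. Related lists gave up to 4 genes each, from those with the largest absolute mean and 1 sign on all 3 arrays. HAP4, NDE2, CYC7, COX5B, SDH9, SHH3, SHH4, TIM11, ATP19, INH1, QCR10, CYB2 and PUT1 were named apart from that rule. Alternatives changed centring, scale, normalization, the use of the dye-swap pair, the variance prior, the genes kept and the fold limit. Another added the dye as a coefficient. Promoter motifs were not analysed here.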

Additional observations from a re-analysis of the deposited data

How the results depend on the processing

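None of the members passed the test under any of the 10 alternative fits, whose smallest adjusted p for a member ran from 0.347 to 0.934 (limma). Over all genes, 4 passed with the arrays scaled to 1 spread, 12 after quantile normalization, 13 with replicate 1 taken from the swapped array alone and 16 with the arrays treated as independent, against 0. The cause was not tested. The members' median stayed above 0 in replicate 1 (0.27 to 0.50) and below 0 on the array labelled as replicate 2 (−0.16 to −0.04) under every alternative run. With the swapped array alone for replicate 1, 6 members were below 0 in both replicates in place of 3, and complex II had a median of −0.34 in replicate 1. From the mutant-in-Cy5 arrays alone that median was 0.0281, against −0.09. Quantile normalization moved CYC1 on the array labelled as replicate 2 from 0.61 to 1.28. Using 1 replicate alone, where a member needs the sign in that replicate only, 12 (array labelled as replicate 2) to 27 (replicate 1) members were above 0, 6 (replicate 1) to 20 were below, and 0 to 2 were at least 2-fold different. The mean of 1 to 4 members changed sign under each change of centring, scale, normalization or dye-swap use. Among them were COR1, RIP1, CYT1 and QCR6, all with means near 0. ATP3 changed sign too, from 0.15 to −0.11 with the arrays scaled to 1 spread and to −0.04 after quantile normalization. SDH3, SDH4 and QCR7 did so under a change in the use of the dye-swap pair. Without replicate 1, 14 members changed sign, and without replicate 2, 6 did. Motif counts in promoters were not run. No separate paired analysis was run, because each ratio already pairs both strains on 1 array and the test used those ratios.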
